A study of Homo sapiens with 12 samples.

Results

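RNA of HCC70 cells with LAD1 knocked down was compared with that of control HCC70 cells after 240 min of epidermal growth factor (EGF). HCC70 is a line from a human breast carcinoma of the basal-like, triple-negative kind. The knockdown cells stably carried an shRNA against LAD1 (shLAD1 cells), and the control cells stably carried a scramble shRNA (scramble cells). Both were kept overnight in medium without serum and then given EGF at 50 ng/ml for 240 min. The comparison uses 4 of the 12 libraries of the series, 2 from shLAD1 cells and 2 from scramble cells, chosen by their labels. The other 8 libraries, 2 from each kind of cell at 0 and at 40 min of EGF, are used to estimate the spread and to follow genes over time. The labels describe a single shRNA against LAD1, so loss of LAD1 and any other effect of that shRNA cannot be told apart. They do not say whether the lines are clones, or whether libraries numbered 1 and 2 came from separate cultures. What the p-values measure is thus the spread between these libraries, which may be technical. The main fit treats all 12 libraries as independent, though same-numbered libraries of an shRNA deviated together across times. Its adjusted p-values may thus rest on fewer independent samples than 12.

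EGF binds its receptor EGFR at the cell surface and activates the RAS and ERK kinase cascade, among others. Immediate early transcription factors follow within minutes, and genes for feedback inhibitors, ligands, cytoskeleton and adhesion follow over hours. LAD1 encodes ladinin-1, known as an anchoring filament protein of the basement membrane zone under epithelia, and the title of the series names it a binding partner of filamins, which cross-link actin filaments.

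The 4 libraries held 13590690 and 14140995 reads in shLAD1 cells, against 12461935 and 12779335 in scramble cells. Levels are given as normalized counts, which are read counts divided by a size factor for each library, in the order of library numbers 1 and 2. Differences are log2 values, shLAD1 minus scramble, of the normalized count plus 1, with the standard error (SE) of a limma-trend fit and n = 2 libraries per group. That scale understates changes of genes with low counts. A gene was called where its p, adjusted by Benjamini-Hochberg over all 13950 genes tested, was under 0.05. Normalized counts are not scaled for gene length, so levels are compared between cells, not between genes. The 10 epithelial markers looked for in this line, keratins, CDH1 and EPCAM among them, were all measured, with summed levels of 209770 and 223774 in shLAD1 cells and 177125 and 192802 in scramble cells.

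LAD1 itself checks the labels. LAD1 was at 2535 and 2297 normalized counts in shLAD1 cells, against 9102 and 10194 in scramble cells. Both knockdown libraries lay well below both controls, and 25.0% of the scramble level remained, with 27.9% in number 1 libraries and 22.5% in number 2 libraries. LAD1 fell by 1.996 ± 0.13 on the log2 scale (adjusted p = 0.00153), the smallest adjusted p of the genes tested. The call held in the 17 other settings tried, with adjusted p up to 0.0273.

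Of 13950 genes 133 were called, 0.953% of those tested. In shLAD1 cells 62 were higher (0.444%) and 71 were lower (0.509%), and 27 rises and 40 falls were larger than 2-fold. At an unadjusted p under 0.05 there were 1056 higher and 1053 lower genes, and the median over all genes was 0.00. The count depends on each library and on the fit. Without shLAD1 library 1 there were 23 calls and without shLAD1 library 2 there were 56, while 5 were left without scramble library 1 and 4 without scramble library 2. With library number as a replicate block 1462 genes were called (10.5% of those tested), 713 higher (5.11%) and 749 lower (5.37%). When only the 4 libraries were fitted LAD1 alone was called. The direction held in each of these fits for all 133 genes. LAD1, the desaturase SCD5, the protease TMPRSS11E and the thioredoxin-binding protein TXNIP kept their call whichever of the 4 libraries was left out, and 87 of the 133 kept it in none of these 4 fits.

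**Figure D1:**
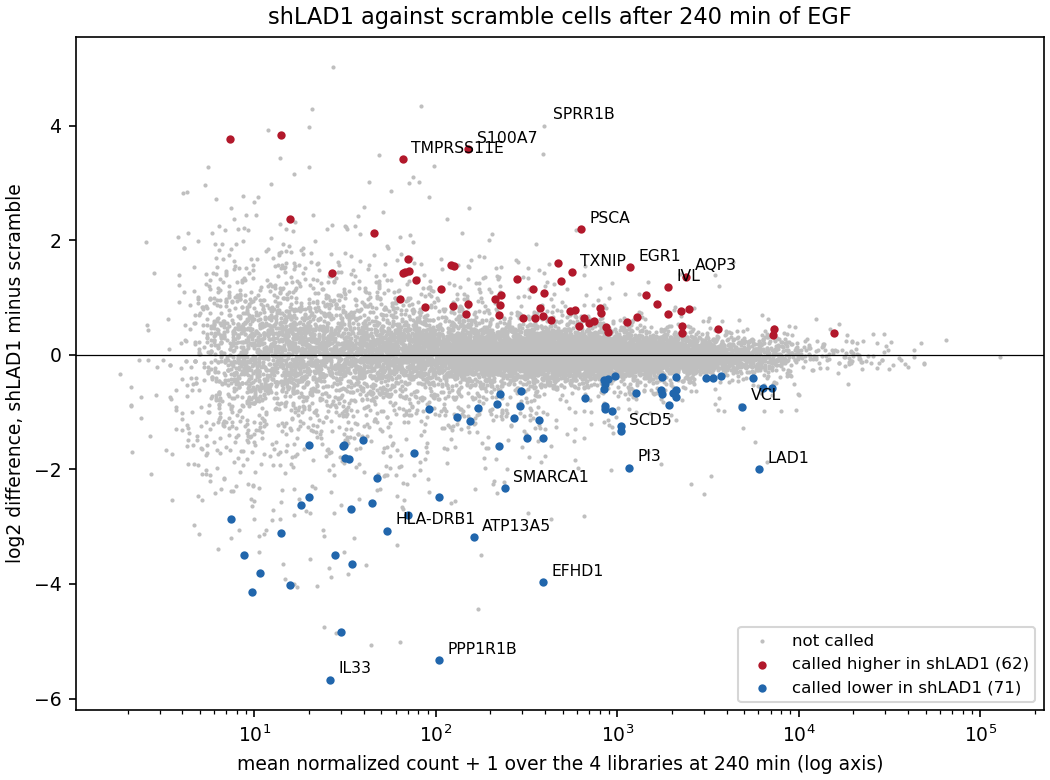
Each point is 1 of 13950 genes after 240 min of EGF, with its mean normalized count plus 1 over the 4 libraries (log axis) against the log2 difference, shLAD1 minus scramble. The 62 genes called higher and the 71 called lower are coloured, and LAD1 stands at -1.996 among the most abundant called genes.

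Among called genes with a mean of at least 100 normalized counts, the 12 largest rises included S100A7, IVL, PADI1, ECM1 and AQP3. S100A7, psoriasin, an antimicrobial calcium-binding protein of stressed epidermis, was at 308 and 248 normalized counts in shLAD1 cells and 25.9 and 18.9 in scramble cells. The groups were far apart, with a difference of 3.58 ± 0.35 (adjusted p = 0.00514). IVL, involucrin, which is cross-linked into the envelope of keratinocytes, was at 2751 and 2529 in shLAD1 cells against 1049 and 1280 in scramble cells. It rose by 1.19 ± 0.16 (adjusted p = 0.0164). PADI1, an enzyme that turns arginine of epidermal proteins into citrulline, was at 728 and 648 in shLAD1 cells against 233 and 335 in scramble cells (1.30 ± 0.21). ECM1, a secreted matrix protein of skin, was at 383 and 415 against 153 and 166 in scramble cells (1.32 ± 0.12, adjusted p = 0.00426). AQP3, a water and glycerol channel of basal keratinocytes, was at 3522 and 3370 against 1504 and 1189 in scramble cells (1.36 ± 0.18). In each of these genes the lower shLAD1 library was above the higher scramble library, which the rule of choice required. S100A7 lost its call in 3 of the 17 other settings and IVL, PADI1 and AQP3 in 5 each, with adjusted p up to 0.201.

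The 7 other large rises had less in common. PSCA, a surface protein anchored by a lipid, was at 1141 and 927 in shLAD1 cells and 202 and 248 in scramble cells, a rise of 2.20 ± 0.24 (adjusted p = 0.00821). ADIRF, an adipogenesis regulatory factor, was at 798 and 614 against 245 and 218 in scramble cells (1.59 ± 0.14). RAPGEF3, the cAMP-activated exchange factor EPAC1, and ALOX5, the lipoxygenase that starts leukotriene synthesis, rose by 1.56 ± 0.27 and 1.55 ± 0.23, with 174 and 186 counts of RAPGEF3 in shLAD1 cells against 55.2 and 65.7 in scramble cells. TXNIP, which binds thioredoxin and restrains glucose uptake, was at 779 and 852 in shLAD1 cells against 340 and 263 in scramble cells, a rise of 1.44 ± 0.13 (adjusted p = 0.00386). HMOX1, the heme oxygenase induced by oxidative stress, rose by 1.15 ± 0.19 (adjusted p = 0.0332), and the transcription factor EGR1 by 1.53 ± 0.27. TMPRSS11E, an epithelial membrane serine protease named after its values were seen, was at 129 and 110 in shLAD1 cells against 7.88 and 13.4 in scramble cells (3.41 ± 0.30, adjusted p = 0.00386).

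**Figure D2:**
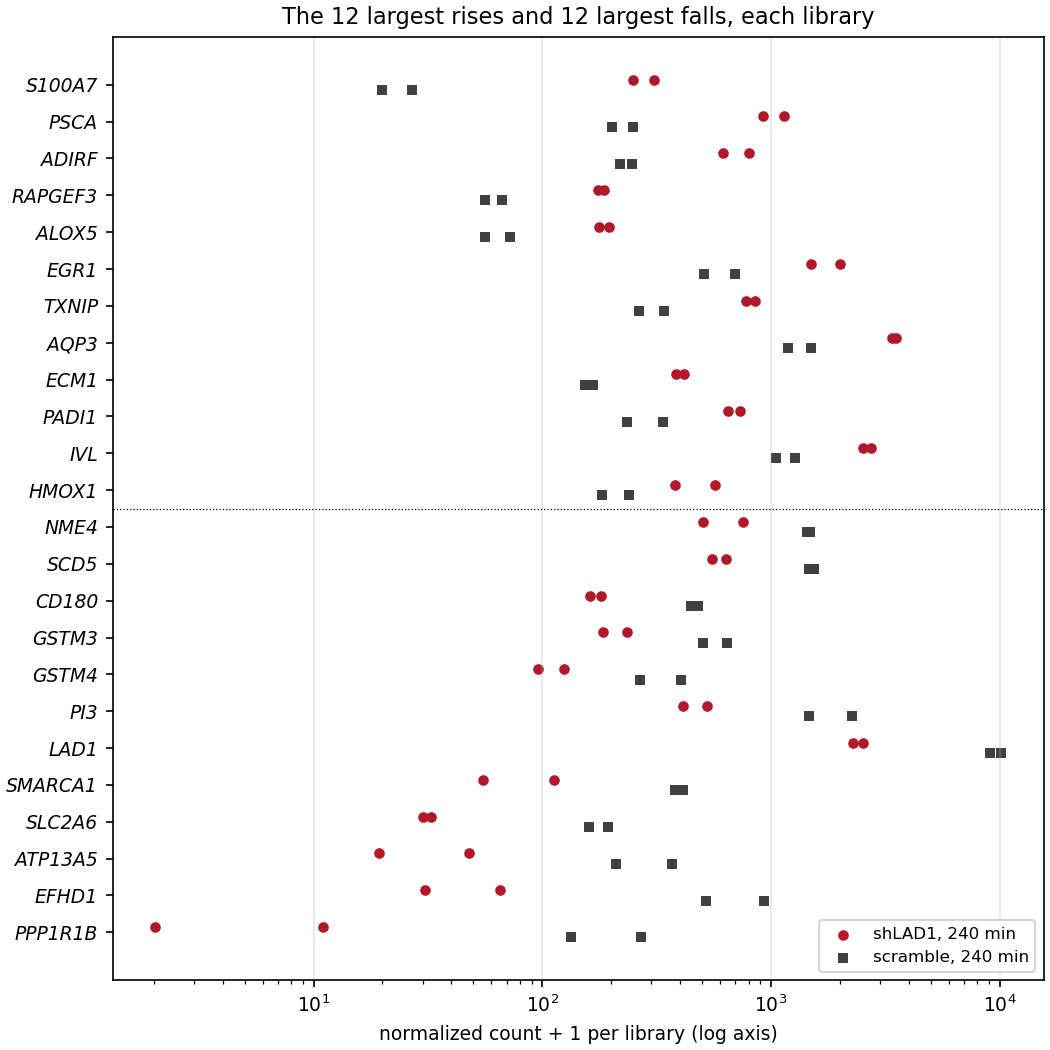
Normalized count plus 1 (log axis) of the 12 genes with the largest rises and the 12 with the largest falls, all called and with a mean of at least 100 normalized counts, with each of the 2 shLAD1 and 2 scramble libraries as a point. The libraries of the groups are apart in every gene by the rule of choice, and the gap is widest for PPP1R1B at -5.33 and S100A7 at 3.58.

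The list of cornified envelope genes, which build the tough outer layer of keratinocytes, had 19 tested members of 29. Only IVL was called, yet the median difference of the list was 0.75, against 0.00 over all genes. Without overlap of the groups 12 members were higher and 2 lower, against 22.2% and 22.4% of all genes. The 2 lower ones were DMKN at -0.66 and TGM5 at -0.93, neither called. The small proline-rich SPRR proteins, substrates cross-linked into that envelope, had the largest differences. SPRR1B was at 613 and 859 normalized counts in shLAD1 cells against 87.8 and 22.3 in scramble cells, a difference of 3.999 ± 0.92 (adjusted p = 0.0962). SPRR1A was at 146 and 201 against 30.4 and 8.91 in scramble cells (3.29), and SPRR2A at 111 and 135 against 25.9 and 7.79 (3.002). The scramble libraries differed from each other several-fold in all 3, and none was called. With the replicate block 5 members were called higher and 1 lower, where 10.5% of all genes were called. SPRR genes, S100A7 and KRT6A each have close copies in the genome, and how reads shared between copies were counted is not given in the sources used here.

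Other lists of surface epithelium gave at most 1 call each. Among 19 keratins, the intermediate filament proteins of epithelia, none was called, and the median was 0.20. The values ran from -0.98 for KRT6B and KRT4 to 1.41 for KRT6A. With the replicate block 4 were called higher and 1 lower, against 5.11% and 5.37% of all genes. Of 13 S100 genes S100A7 alone was called, with S100A8 at 0.66 ± 0.28 and S100A9 at 0.70 ± 0.29, both not called. A list of kallikrein peptidases, which act in shedding of the outer epidermis, and of peptidase inhibitors had 14 tested members. Of these PI3, an elastase inhibitor, was called lower, and the median was -0.18. The 6 peptidases KLK5 to KLK10 had differences of 1.10 (KLK8) to 2.17 (KLK7), with no overlap of the groups and no call. Over all genes 22.2% were higher without overlap. KLK14, the other peptidase tested, was at -0.63 with overlapping groups. KLK7 was at 757 and 1164 in shLAD1 cells against 320 and 135 in scramble cells (2.17 ± 0.55, adjusted p = 0.126).

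Promoters of 3 of the higher genes are printed because they are the immediate early gene EGR1 and 2 of the larger rises above. They are RefSeq sequences of build GRCh38.p14, from 250 bases before to 50 bases after the start, and are 5′ to 3′ on the strand of the gene. Capitals mark matches on either strand to TGANTCA, the site of AP-1 factors such as FOS and JUN, or to the CArG box, the site of serum response factor (SRF). EGR1 is at chr5:138465229-138465528 on the plus strand, IVL at chr1:152908296-152908595 on the plus strand and S100A7 at chr1:153460602-153460901 on the minus strand.
EGR1: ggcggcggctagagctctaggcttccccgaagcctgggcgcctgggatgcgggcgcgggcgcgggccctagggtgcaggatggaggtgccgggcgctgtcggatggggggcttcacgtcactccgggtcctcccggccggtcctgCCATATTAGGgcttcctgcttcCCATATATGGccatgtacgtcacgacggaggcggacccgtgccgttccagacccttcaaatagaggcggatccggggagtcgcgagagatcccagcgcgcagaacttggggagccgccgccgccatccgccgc
IVL: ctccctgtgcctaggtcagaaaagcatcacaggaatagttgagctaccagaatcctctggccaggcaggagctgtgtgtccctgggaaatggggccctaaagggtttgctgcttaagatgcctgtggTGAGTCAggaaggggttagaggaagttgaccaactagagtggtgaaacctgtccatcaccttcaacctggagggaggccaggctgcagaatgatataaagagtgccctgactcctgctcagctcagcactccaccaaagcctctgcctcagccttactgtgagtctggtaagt
S100A7: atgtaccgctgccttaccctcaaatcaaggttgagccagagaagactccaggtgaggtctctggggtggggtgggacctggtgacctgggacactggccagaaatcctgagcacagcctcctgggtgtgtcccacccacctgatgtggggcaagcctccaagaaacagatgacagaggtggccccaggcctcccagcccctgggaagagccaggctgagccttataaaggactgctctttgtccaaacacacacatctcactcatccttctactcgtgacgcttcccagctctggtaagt
EGR1 holds 2 CArG boxes, IVL holds 1 TGANTCA, and S100A7 holds neither in this window. TGANTCA was present in 7.73% of 34796 promoters of this length and the CArG box in 1.30%. Of the 62 genes called higher 46 matched the table by symbol, and 4 of these held TGANTCA and 3 a CArG box. Of the 71 genes called lower 50 matched, and 2 held TGANTCA and 2 a CArG box. A match describes letters in this window and is no measurement of binding.

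The largest falls among called genes of that abundance were those of PPP1R1B, EFHD1 and ATP13A5. PPP1R1B, the phosphatase inhibitor DARPP-32, was at 1.02 and 10.0 normalized counts in shLAD1 cells and 133 and 268 in scramble cells. It fell by 5.33 ± 0.80 on the log2 scale (adjusted p = 0.028). EFHD1, a mitochondrial calcium-binding protein, was at 29.7 and 64.0 in shLAD1 cells against 935 and 520 in scramble cells (-3.97 ± 0.56). Both genes were low in both knockdown libraries, though these differed from each other by more than 2-fold in both genes. The scramble libraries also differed by 2-fold or more in PPP1R1B. ATP13A5, a P-type ATPase, was at 18.4 and 47.0 against 367 and 209 in scramble cells (-3.19 ± 0.51). SLC2A6, a sugar transporter, was at 31.7 and 29.0 against 192 and 159 in scramble cells (-2.49 ± 0.33). SMARCA1, an ATPase of chromatin remodelling complexes, was at 54.2 and 111 against 378 and 410 in scramble cells (-2.33 ± 0.31). In ATP13A5 and SMARCA1 the shLAD1 libraries also differed from each other by more than 2-fold. For these 5 genes the adjusted p lay between 0.0136 and 0.0332.

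PI3, the secreted elastase inhibitor elafin, was the most abundant of the remaining large falls after LAD1, at 411 and 523 in shLAD1 cells and 1467 and 2261 in scramble cells (-1.97 ± 0.33, adjusted p = 0.0376). SCD5, which puts double bonds into fatty acids, was at 553 and 638 in shLAD1 cells against 1460 and 1535 in scramble cells. Its libraries were tight and the fall of 1.33 ± 0.10 (adjusted p = 0.00208) held without any 1 library. The glutathione transferases GSTM3 and GSTM4, close copies of each other, stood at -1.45 ± 0.23 and -1.59 ± 0.27, both called. CD180, a Toll-like receptor relative known from B cells, was at 179 and 160 in shLAD1 cells against 445 and 481 in scramble cells (-1.44 ± 0.20, adjusted p = 0.0154). NME4, a mitochondrial nucleoside diphosphate kinase, stood at -1.25 ± 0.20 (adjusted p = 0.0317).

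FLNA and the actins were not called. FLNA, the main filamin of non-muscle cells, was at 36827 and 33794 normalized counts in shLAD1 cells and 40594 and 35046 in scramble cells. The difference was -0.10 ± 0.19 and its sign turned without scramble library 1 (0.01). FLNC, the filamin of muscle, did not pass the minimum count. The actins ACTB and ACTG1 were at -0.04 ± 0.10 and -0.16 ± 0.18, both positive without shLAD1 library 1 (0.01 and 0.08). SFN, the 14-3-3 sigma protein of epithelia, stood at 0.22 ± 0.12 with adjusted p = 0.42. A p that misses the threshold does not show that these levels were equal.

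VCL and TNS3, which act where the cytoskeleton meets adhesion sites, fell. VCL, vinculin, which links integrin and cadherin complexes to actin, was at 3072 and 3772 in shLAD1 cells against 6280 and 6450 in scramble cells. It fell by 0.90 ± 0.10 (adjusted p = 0.0081), with both knockdown libraries below both controls. TNS3, a tensin that binds integrin tails and actin, was at 1034 and 930 in shLAD1 cells against 1502 and 1629 in scramble cells (-0.67 ± 0.09, adjusted p = 0.0113). Both belong to the 23 tested genes of focal adhesions and integrins, which had a median of -0.10. Of these 2 were called lower and 0 higher, against 0.509% and 0.444% of all genes. FERMT1, a kindlin that activates integrins, was at 566 and 684 in shLAD1 cells against 271 and 259 in scramble cells (1.23 ± 0.24, adjusted p = 0.0529), and TNS4, another tensin, stood at 0.96 ± 0.19 (adjusted p = 0.0555), both above the scramble libraries but not called. With the block 4 were higher and 2 lower, against 10.5% called over all genes. Among 33 genes of filamins, actin and its regulators LCP1, an actin-bundling plastin, was called, at 92.1 and 74.0 in shLAD1 cells and 169 and 183 in scramble cells (-1.08 ± 0.18), and the median was -0.04. SORBS2, an adaptor of actin and adhesion sites named after its values were seen, was at 136 and 171 in shLAD1 cells against 287 and 268 in scramble cells (-0.86 ± 0.14).

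In the lists of anchoring, desmosome and junction genes LAD1 was the only call. Of 14 genes of hemidesmosomes and basement membrane anchoring LAD1 was the one called, and the median was 0.17. ITGB4, the integrin of hemidesmosomes, was at 2482 and 2446 in shLAD1 cells against 2308 and 2228 in scramble cells (0.12 ± 0.08). COL7A1, the collagen of anchoring fibrils, was at 117 and 110 in shLAD1 cells against 39.4 and 16.7 in scramble cells (2.10 ± 0.46, adjusted p = 0.0786). LAMB3, a chain of laminin-332, was at 10275 and 10379 against 7487 and 7080 in scramble cells (0.50 ± 0.11, adjusted p = 0.0717). In COL7A1 and LAMB3 the groups did not overlap, and neither was called. Among 11 desmosome genes and 19 genes of other cell junctions none was called, with medians of -0.06 and -0.03. With the replicate block 4 desmosome genes were called, 2 in each direction, and 6 junction genes, 3 in each direction, where 10.5% of all genes were called. Of 15 targets of SRF and its actin-sensing cofactor MRTF, VCL alone was called (median -0.10). CYR61, a matricellular target of that factor, was at 866 and 894 in shLAD1 cells against 1345 and 573 in scramble cells, with overlapping groups (0.00 ± 0.45). COL1A1, a collagen chain, was at 506 and 559 in shLAD1 cells against 259 and 243 in scramble cells (1.08 ± 0.17, adjusted p = 0.026).

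**Figure D3:**
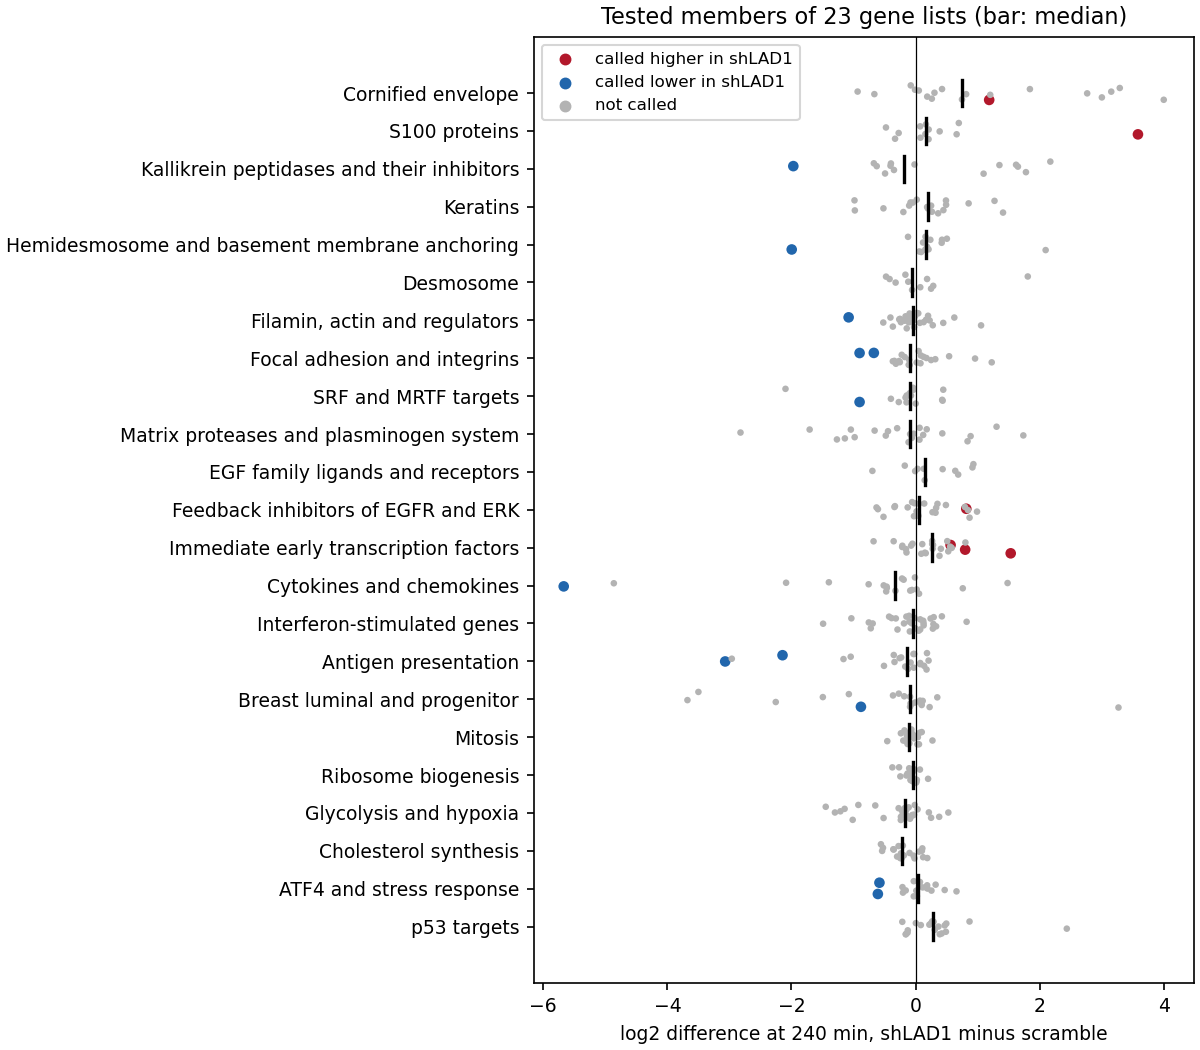
Each point is a tested gene of 1 of 23 lists with its log2 difference at 240 min, shLAD1 minus scramble, and bars mark the median of each list. Called genes are coloured, and the median of the cornified envelope list, 0.75, lies furthest from 0 of the lists drawn.

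In the lists of EGF response genes 3 transcription factors were called higher, JUND and KLF4 already at 0 min, before EGF. Of 26 tested immediate early factors EGR1, JUND and KLF4 were higher and 0 were lower, against 0.444% higher and 0.509% lower over all genes, and the median was 0.27. EGR1, a zinc finger factor that is transcribed within minutes of a growth signal, was at 1997 and 1495 in shLAD1 cells against 698 and 510 in scramble cells (1.53 ± 0.27, adjusted p = 0.0484). Both shLAD1 libraries were more than 2-fold above the higher scramble library. JUND, an AP-1 subunit, was at 3370 and 2970 in shLAD1 cells against 1865 and 1772 in scramble cells (0.80 ± 0.12). KLF4, a factor of epithelial differentiation, was at 1363 and 1315 in shLAD1 cells against 830 and 988 in scramble cells (0.56 ± 0.10). At 0 min JUND stood at 0.76 ± 0.12 (adjusted p = 0.0232) and KLF4 at 0.51 ± 0.10 (adjusted p = 0.0389). FOS was at 0.28 ± 0.12 and JUN at 0.41 ± 0.23, neither called. EGR1 lost its call in 8 of the 17 other settings, with adjusted p up to 0.297, JUND in 5 and KLF4 in 6. With the replicate block 5 members were higher and 0 lower, against 5.11% and 5.37% of all genes.

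EGFR, the receptor of EGF, was not called. It was at 4213 and 4658 in shLAD1 cells and 4251 and 4662 in scramble cells, a difference of -0.01 ± 0.20 whose sign turned in 3 of the 17 other settings. Libraries of the same number were close, at -0.01 and -0.00 on the log2 scale. Of 11 ligands and receptors of the EGF family none was called, with a median of 0.15. In 7 of the 11 the shLAD1 libraries lay above the scramble libraries without overlap, against 22.2% of all genes. Among them were the ligands EREG (0.93 ± 0.36), EPGN (0.92 ± 0.56), AREG (0.69 ± 0.41) and HBEGF (0.64 ± 0.21). RNA of the ligand EGF itself was lower without overlap (-0.70 ± 0.46), and the ligand NRG4 was at -0.17 with overlapping groups. Of 24 feedback inhibitors of EGFR and ERK CBLB, a ubiquitin ligase that targets receptors for degradation, was called higher. CBLB was at 482 and 476 in shLAD1 cells against 298 and 247 in scramble cells (0.82 ± 0.13, adjusted p = 0.0295). It was also called higher at 0 min (0.68 ± 0.13, adjusted p = 0.0392). DUSP6, the phosphatase of ERK, was at 700 and 625 in shLAD1 cells against 383 and 354 in scramble cells, with 0.84 ± 0.40 and no call, and the list had a median of 0.05. MAP2K1, the kinase MEK1 just above ERK, was named after its values were seen and stood at 1322 and 1437 in shLAD1 cells against 2115 and 2086 in scramble cells (-0.61 ± 0.07, adjusted p = 0.0105).

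Some immune genes that epithelial cells can express were lower. IL33, an alarmin of epithelial nuclei, had no read in either shLAD1 library, against 57.4 and 43.4 normalized counts in scramble cells. Taking 3 counts per library as the floor, IL33 was at least 16.6-fold lower in shLAD1 cells, with adjusted p = 0.00821. It was the only called gene of 19 tested cytokines and chemokines, which had a median of -0.32. Of 22 antigen presentation genes 2 of the class II genes, whose products show peptides to helper T cells, were called lower. Over all genes 0.509% were called lower. HLA-DRA was at 19.4 and 14.01 in shLAD1 cells against 70.9 and 82.4 in scramble cells (-2.14 ± 0.24, adjusted p = 0.0081). HLA-DRB1, which has close copies and varies between genomes, was at 16.4 and 6.003 against 119 and 70.1 in scramble cells (-3.07 ± 0.49). Both were low in both kinds of cell. The class I genes HLA-B and HLA-C were at -0.03 and 0.14, CD74, the class II chaperone, was at -0.51 ± 0.33, and none of these was called. Among 30 interferon-stimulated genes none was called, with a median of -0.04, and with the replicate block 1 was higher and 3 were lower, a share near the 10.5% of all genes.

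The metabolic lists held 4 calls, SLC7A5, PSAT1 and LPIN1 lower and RARG higher. SLC7A5, a leucine transporter, was at 5803 and 5624 in shLAD1 cells against 8890 and 8234 in scramble cells (-0.58 ± 0.09, adjusted p = 0.0202). PSAT1, an enzyme of serine synthesis, was at 1592 and 1726 in shLAD1 cells against 2542 and 2513 in scramble cells (-0.61 ± 0.07, adjusted p = 0.0111). These were the 2 calls among 18 genes of the ATF4 and stress response, where 0.953% of all genes were called. The median of that list was 0.05. In fatty acid and retinoid metabolism (27 tested) LPIN1, a phosphatidate phosphatase, was lower (-0.67 ± 0.07, adjusted p = 0.0081), and RARG, a retinoic acid receptor, was higher (0.38 ± 0.07, adjusted p = 0.0484). Among 29 genes of glycolysis and hypoxia none was called and the median was -0.17; with the replicate block 7 were lower and 0 higher, against 5.37% lower and 5.11% higher over all genes. Among 21 genes of cholesterol synthesis none was called and the median was -0.21, and with the block 5 were lower, against the same 5.37%.

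The 3 lists of growth and division had no called member. They were mitosis (23 tested, median -0.10), entry into S phase and DNA replication (27, median -0.03) and ribosome biogenesis (22, median -0.04). With the block each had 1 or 2 calls, where 10.5% of all genes were called. Among 20 targets of p53 none was called, 0.28 was the median, and CDKN1A, an inhibitor of cell cycle kinases, was at 4226 and 5949 in shLAD1 cells against 4252 and 3956 in scramble cells (0.29 ± 0.25). Among 21 breast luminal and progenitor genes PROM1, the membrane protein CD133, was lower, at 1363 and 1350 in shLAD1 cells against 2451 and 2547 in scramble cells (-0.88 ± 0.11, adjusted p = 0.0111). UNC5B, a netrin receptor, was called higher among 29 ephrins, semaphorins and netrins (1.04 ± 0.18), and no gene was called among the Notch, Wnt, TGF-beta and NF-kB lists.

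Markers of other cell types were also measured. Of 10 fibroblast markers 2 passed the minimum count, COL1A1 and PDGFRA, and COL3A1, DCN and POSTN had no read in any of the 4 libraries. The summed level of the list was 515 and 570 in shLAD1 cells and 295 and 269 in scramble cells, nearly all of it COL1A1. PDGFRA, a growth factor receptor, was at 2.05 and 7.004 in shLAD1 cells against 33.8 and 25.6 in scramble cells (-2.62 ± 0.45). The 2 genes were called in opposite directions. Of 8 endothelial markers 4 were tested, EMCN had no read, and ESAM, a junction protein, made most of the summed level of 241 and 420 in shLAD1 cells and 303 and 369 in scramble cells. CDH5, the cadherin of vessels, was at 23.5 and 26.01 in shLAD1 cells against 2.25 and 6.68 in scramble cells (2.37 ± 0.44, adjusted p = 0.0484). CDH5 lost its call in 10 of the 16 other settings in which it was tested. Of 10 leukocyte markers 3 were tested, CD68, CD14 and CSF1R, and the lymphocyte genes CD3D and MS4A1 had no read. The summed level was 2227 and 2943 in shLAD1 cells and 2098 and 2343 in scramble cells. CD68, a lysosomal protein abundant in macrophages, was at 1577 and 1545 in shLAD1 cells against 1017 and 959 in scramble cells, without overlap and not called (0.66 ± 0.14, adjusted p = 0.0686). CD14 was at 584 and 1326 against 1038 and 1354 in scramble cells, with overlapping groups, and CSF1R at 62.4 and 65.0 against 41.7 and 24.5 in scramble cells. The part of other cells in these results was not tested.

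Some called genes outside the lists are given as single values, named after these were seen. CTSD, CTSA, CTSL and MANBA, which encode lysosomal enzymes, were higher by 0.38 ± 0.07, 0.45 ± 0.06, 0.82 ± 0.13 and 0.55 ± 0.10. CTSD was at 17195 and 18017 in shLAD1 cells against 14106 and 13032 in scramble cells. MTOR, the growth kinase active at lysosomes, was at 1824 and 1830 in shLAD1 cells against 2293 and 2471 in scramble cells (-0.38 ± 0.07). RRAGD, a GTPase that helps bring that kinase to lysosomes, was at 16.4 and 8.004 against 67.5 and 81.3 in scramble cells (-2.59 ± 0.39). These genes were picked for their values and no list of their kind was counted, so nothing is drawn from them as a group.

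On chromosome 19, 5 zinc finger genes within a stretch chosen for its values were called higher in shLAD1 cells. From ZNF548 to ZNF256, neighbours by RefSeq order in build GRCh38.p14, 25 genes were tested, 24 of them with zinc finger symbols. Of these 22 were positive and 3 negative, against 50.2% positive over all genes, 5 were called higher (0.444% over all genes) and the median was 0.57. The range was -0.50 to 1.45. The 5 called were ZNF548 (1.43 ± 0.26), ZNF549 (1.15 ± 0.21), ZNF551 (0.89 ± 0.15), ZNF814 (1.45 ± 0.25) and ZNF256 (1.30 ± 0.17). ZNF814 was at 115 and 83.0 in shLAD1 cells against 32.6 and 37.9 in scramble cells. The stretch had a median of 0.81 at 0 min and 0.69 at 40 min. Because its ends were chosen after the values were seen, these counts are a description. The genes are close relatives with similar sequence, and a difference in copy number between the cell lines was not tested.

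Libraries of the same number were also compared with each other. Across all tested genes the difference in number 1 libraries correlated with that in number 2 libraries at 0.484, as a description across genes that are not independent. All 133 called genes had the same sign in both, which the choice by the call itself favours. Some sizes differed between the numbers: ATP13A5 stood at -4.24 in number 1 and -2.13 in number 2, EFHD1 at -4.93 and -3.00, and PADI1 at 1.64 and 0.95. ECM1 (1.32 in both) and EGR1 (1.52 and 1.55) were close.

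**Figure D4:**
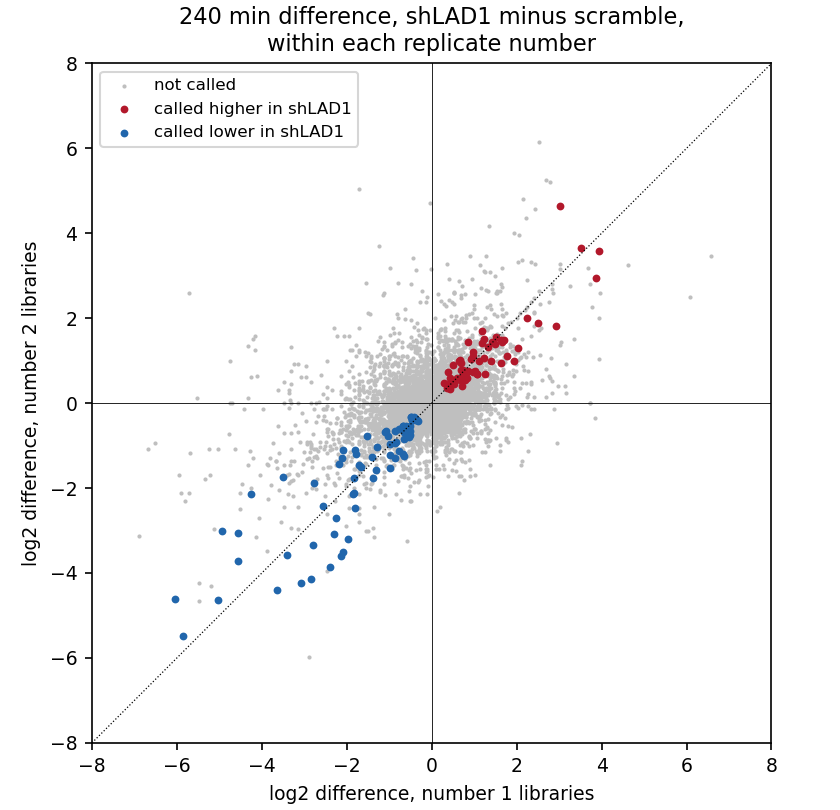
Each point is a tested gene with its log2 difference at 240 min, shLAD1 minus scramble, in number 1 libraries (x axis) and number 2 libraries (y axis), with the dotted line at equality. All 133 called genes lie in the quadrants where both signs are the same, and EFHD1 is at -4.93 and -3.00.

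The same cells at 0 and 40 min showed most of the 240 min differences. The 3 comparisons use separate libraries of the same cell lines, but share the same fit and its estimate of the spread. Same-numbered libraries of an shRNA deviated together across times, so shared calls and signs are not independent repeats. At 0 min 217 genes were called (1.56%) and at 40 min 230 (1.65%). Of the 133 genes called at 240 min 101 were called in the same direction at 0 min, 103 at 40 min and 90 at all 3 times, 37 higher and 53 lower. All 133 had the same sign at both other times. S100A7, for example, was at 3.58 at 240 min, and its levels at 0 min were 261 and 155 in shLAD1 cells against 15.5 and 13.4 in scramble cells. VCL was already lower at 0 min, at 1381 and 1495 in shLAD1 cells against 2520 and 2253 in scramble cells. The call at 240 min was alone in 19 genes, EGR1, RAPGEF3 and RARG among them, which does not show a difference between times.

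**Figure D5:**
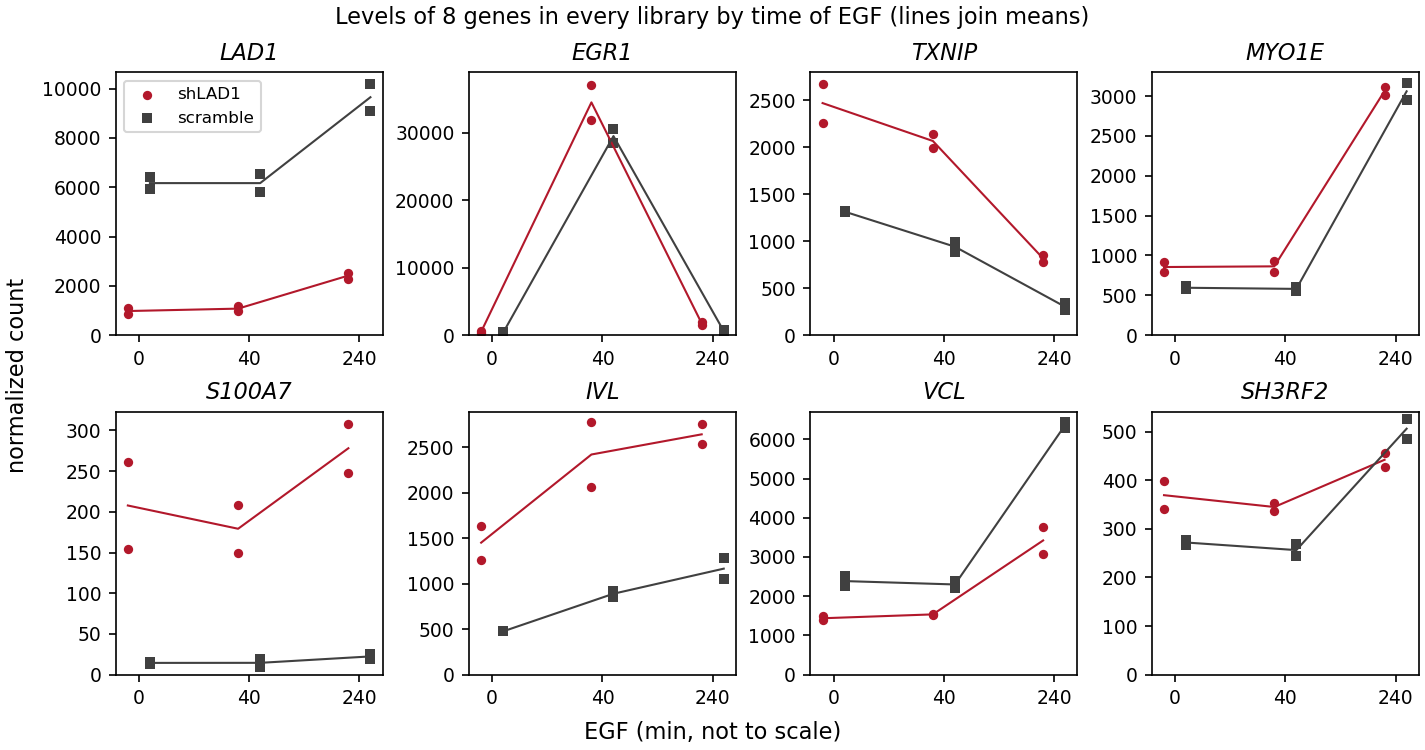
Normalized counts of 8 genes at 0, 40 and 240 min of EGF, with each shLAD1 and scramble library as a point and lines through the means of 2 libraries. LAD1, S100A7, IVL, TXNIP and VCL keep the groups apart at every time, EGR1 peaks at 40 min in both kinds of cell, and MYO1E has overlapping groups at 240 min.

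A test of the difference between times called 0 genes in either case. For 240 against 0 min 133 genes had an unadjusted p under 0.05, and for 240 against 40 min 191. The other tools run, edgeR, DESeq2 and limma-voom, also called 0. With a replicate block within each shRNA, which treats the libraries as 4 cell populations followed over time, 27 genes were called for 240 against 0 min (13 positive and 14 negative) and 61 for 240 against 40 min (16 positive and 45 negative). LAD1 was among both: its knockdown difference was smaller at 240 min by 0.67 ± 0.07 than at 0 min (adjusted p = 1.42e-05) and by 0.53 ± 0.07 than at 40 min (adjusted p = 0.000255) in that fit. The share of LAD1 remaining was 15.9% at 0 min, 17.5% at 40 min and 25.0% at 240 min. LAD1 itself was at 1091 and 865 in shLAD1 cells and 5925 and 6406 in scramble cells at 0 min, all of them below the 240 min levels of the same cells.

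EGR1 was called at 240 min, with differences of 0.32 ± 0.27 at 0 min and 0.22 ± 0.27 at 40 min that were not called. At 0 min EGR1 was at 358 and 646 in shLAD1 cells against 363 and 410 in scramble cells. At 40 min it was at 31851 and 37098 in shLAD1 cells against 30475 and 28487 in scramble cells. At 240 min, back to levels far below the 40 min peak in both, the shLAD1 libraries were above the scramble libraries. The difference at 240 min exceeded that at 0 min by 1.22 ± 0.39 and that at 40 min by 1.31 ± 0.39, with unadjusted p = 0.0132 and 0.0091 and neither called after adjustment.

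MYO1E, an actin motor of the membrane cortex, showed the reverse order. It was at 915 and 795 in shLAD1 cells against 612 and 578 in scramble cells at 0 min, and at 934 and 793 against 609 and 552 in scramble cells at 40 min. At 240 min it was at 3008 and 3119 in shLAD1 cells and 3168 and 2950 in scramble cells, with overlapping groups. Its difference at 240 min was below that at 0 min by -0.52 ± 0.09 (adjusted p = 0.00955 with the block within each shRNA). CXCL8 and LIF encode secreted cytokines and were named after their values were seen. CXCL8 was called lower at 0 min, at 17.5 and 30.5 in shLAD1 cells against 119 and 109 in scramble cells. At 240 min CXCL8 was at 204 and 503 against 496 and 422 in scramble cells, and the groups overlapped. The difference between those times was 1.74 ± 0.24 for CXCL8 (adjusted p = 0.0029) and 1.34 ± 0.14 for LIF (adjusted p = 2.81e-05) in that fit.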

How the data were processed

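Per the labels' protocols, poly-A RNA of HCC70 cells was sequenced from TruSeq libraries. STAR, DESeq2 and the build hg19 appear in the submitters' processing notes. For versions, counting tool, annotation and strand, the sources used here give nothing. The deposited signal of each gene and library is a read count divided by a size factor. When every value was divided by the smallest non-zero one of its library, 100% came out whole to within 0.001. The 12 libraries held 12428618 to 16721013 reads, and 20013 of the 26365 genes had a read.

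limma-trend (limma 3.58.1, R 4.3.3, robust) was fitted to log2(normalized count + 1) with a mean per group over all 12 libraries, for the 13950 genes that reached 10 normalized counts in 2 or more libraries. Normalized counts, not raw counts, were deposited, and limma was chosen as the main test for that reason. This was a choice, since count models could be run on the recovered reads. edgeR 4.0.16 and DESeq2 1.42.0 were run on the recovered reads as alternatives, with limma-voom, other scalings, filters, pseudocounts, blocks and left-out libraries. The test was also run on simulated counts, drawn independently for each library. These lacked the shared deviations of same-numbered libraries, so that run does not show how the test performs with them.

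Genes named are the called ones with no overlap between groups, a mean of 100 normalized counts or more and the 12 highest or 12 lowest differences, up to 4 called members of each list, and LAD1, FLNA, FLNC, EGFR, ACTB, ACTG1 and SFN whatever their p. Some genes are not reported here. Others are said to be chosen after their values were seen. For differences between times they are LAD1 and the 4 genes of smallest unadjusted p. The comparison, the members and the lists were chosen with earlier results of these data known.

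Library numbers are from the labels. Deviations of same-numbered libraries from their group means correlated at 0.645 to 0.734 between groups of the same shRNA (6 pairs). Between shRNAs they correlated at 0.247 to 0.307 (9 pairs). The numbers were thus taken to pair the samples. Blocked values are given for all genes together and for some of the lists. The lists given without them may also have more calls with the block. The correlations also differ by shRNA, which a block on the number alone does not take up. Libraries of a group differed by more than counting noise (chi-square per degree of freedom 19.5 in shLAD1 and 8.76 in scramble cells at 240 min).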

Additional observations from a re-analysis of the deposited data

Results flagged for a closer look

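Differences between times in the size of the knockdown effect are given as the log2 difference at 240 min minus that at the earlier time. None was called by the fit with a mean per group, and the block within each shRNA called those below except the 2 of MSMP. LAD1 stood at 0.67 against 0 min and 0.53 against 40 min. MYO1E stood at -0.52 and -0.57, and SH3RF2, a regulator of JNK signalling, at -0.63 and -0.62. TXNIP stood at 0.54 against 0 min (adjusted p = 0.027). Against 40 min the RNA LINC01578 stood at 0.62, UBALD2 at 0.72 and the kinase gene SIK1 at -1.11, with adjusted p of 0.0082, 0.000255 and 0.00546. SIK1 was at 730 and 634 normalized counts in shLAD1 cells against 385 and 326 in scramble cells at 40 min, and at 262 and 280 against 281 and 332 in scramble cells at 240 min.

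MSMP, which encodes a secreted protein, stood at -0.67 against 0 min and -0.56 against 40 min. Both its shLAD1 libraries were below both scramble libraries at 240 min and above them at 0 and 40 min, and neither difference was called in any fit. Its levels were 139 and 122 in shLAD1 cells against 169 and 161 in scramble cells at 240 min, and 160 and 183 against 132 and 140 in scramble cells at 0 min.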

How the results depend on the processing

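The count of 133 genes moved with the model: 380 with DESeq2, 69 with limma-voom, 1462 with the replicate block, 1 (LAD1) when only the 4 libraries at 240 min were fitted and 242 when these had the replicate block, a fit chosen after the data were seen. Leaving out a library gave 4 to 56. The other 8 alternatives, 3 scalings, 2 pseudocounts, 2 filters and edgeR, gave 116 to 148. LAD1 kept its call in all 17, at -2.08 to -1.91. For the differences between times the block within each shRNA gave 27 genes against 0 min and 61 against 40 min, where the main test gave 0. The block on the number alone gave 0 there, and leaving out a library gave 0.

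Among named genes signs turned in 5, none of them called. MYO1E stood at -0.00178 with TMM scaling, -0.00238 with edgeR and -0.00173 with voom, and EGFR at 0.00339 with total-count scaling. Leaving out a library gave -0.0485 to 0.054 for MYO1E, -0.0793 to 0.0653 for EGFR, -0.202 to 0.0095 for FLNA, -0.0931 to 0.0116 for ACTB and -0.403 to 0.0792 for ACTG1. The cause was not tested for any of these changes.

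With 2 libraries a group, small changes of low genes were not detectable. Zero counts in a library allow up to 3 counts.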
